A study of Rattus norvegicus with 56 samples.

Results

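Most of the genes described here encode subunits of oxidative phosphorylation that are made from the nuclear genome. All were measured in the rat dorsal striatum after a nigral lesion, L-dopa and pramipexole. They were chosen by symbol from the array annotation: probe sets with a single symbol of the Nduf (a, b, c, s or v), Sdh, Uqcr, Cox4 to Cox8 or Atp5 families, a mean log2 signal above 5 over the 56 arrays, and the brightest probe set of each gene. The rule matched 88 probe sets of 79 genes, and 73 genes passed the level, out of 10163 genes with a single symbol that were tested. Of the 73 genes, 33 were counted in complex I, 4 in complex II, 7 in complex III, 13 in complex IV and 16 in complex V. Ndufa4, the pseudogene Cox6c-ps1 and the supercomplex factor Cox7a2l are counted in complex IV. All 73 were tested, so none was lost to the filter on low signals.

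Oxidative phosphorylation makes most of the ATP of a neuron. Complex I takes electrons from NADH and complex II takes them from succinate, complex III passes them to cytochrome c, and complex IV gives them to oxygen, while complex V, the ATP synthase, uses the proton gradient that complexes I, III and IV build. The system has a place in both of the classical models of basal ganglia disease: toxins that block complex I kill nigral dopamine neurons, and toxins that block complex II damage the medium spiny neurons of the striatum.

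In lesioned rats a viral (AAV) vector that overexpresses alpha-synuclein had destroyed nigral neurons on both sides, and sham rats carried the same vector with GFP; the promoter that drives the vector is not given in the sources used here. Treatment began 5 weeks after surgery and lasted 3 weeks, with daily saline or L-dopa as its methyl ester at 50 mg/kg, given beside benserazide, an inhibitor that keeps dopamine from being made in the periphery. Place conditioning, a test of drug reward, then paired a compartment with the D2/D3 receptor agonist pramipexole (2 mg/kg) or with saline, and the striatum was sampled 24 or 48 hours later. The 8 groups were lesioned rats given L-dopa and pramipexole, L-dopa and saline, saline and pramipexole, or saline and saline, and sham rats given the same 4 combinations, with 7 male Sprague Dawley (Crl:OFA) rats and 1 array per rat in each. Beyond 1 array per rat, nothing in the labels ties rats to litters or days.

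Arrays of samples numbered 1 to 37 and 38 to 56 stood apart in some probe sets. Values of these sets of numbers were fully separated in 15 of the tested probe sets and in 0 of the 73 members. The median difference of members between the sets was 0.01. All 28 lesioned rats and 9 of the sham rats are in the lower numbers, and the other 19 sham rats are in the higher. The break was found from the values, and the labels do not say what it is. Drug comparisons were therefore made inside each set of numbers. The 7 sham rats with L-dopa and saline conditioning were split into numbers 36 and 37 and numbers 38 to 42. Array medians lay between 5.62 and 5.81 on the log2 scale. The tissue label held, since 10 of the 11 tested markers of D1 and D2 medium spiny neurons, Penk, Drd1 and Drd2 among them, had mean signals above the 92nd percentile of all probe sets. The dissections also held cortical transcripts to a varying degree, and 1 lesioned rat given both drugs had a microglial marker score of 2.60, against at most 0.37 in any other group.

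Signals of different probe sets are not on a common scale, so the levels below say only that a transcript was measured. In complex I the probe sets ran from Ndufb8 (mean 7.99), an accessory subunit of the membrane arm, to Ndufb4 (11.53) and Ndufb9 (11.63), 2 more of that arm. The 4 genes of complex II lay close together, with Sdhb (10.16), the iron-sulfur subunit, at one end and Sdhc (10.34), a membrane anchor, and Sdha (10.55), the flavoprotein, at the other. In complex III the span was from Uqcrc1 (10.39), a core protein, to Uqcr10 (11.28) and Uqcr11 (11.71), which are small accessory subunits. Complex V ran from Atp5me (9.67), a small membrane subunit, to Atp5mk (11.85), another, and Atp5f1b (12.00), the catalytic beta subunit.

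Complex IV held the members nearest to the level of 5. The general isoforms Cox4i1, Cox6a1 and Cox8a averaged 11.55, 11.73 and 12.01 in rats 1 to 37. Cox8a and Cox6c (12.26) were the brightest of the complex. Cox7a1, the isoform of heart and skeletal muscle, averaged 5.42, and the pseudogene Cox6c-ps1 averaged 5.52; these 2 lay just inside the level of 5. Just outside it were Ndufa4l2 (4.52) and Cox6b2 (4.30), an isoform of testis, and farther below were Cox7b2 (3.50), Cox6a2 (3.28), Cox4i2 (2.52) and Cox8b (2.24). Cox6a2 and Cox8b are the muscle isoforms, and Cox4i2 is best known from lung. Another 7 probe sets carry a subunit's symbol beside that of a related locus, Cox7a2, Uqcrb and a second Cox5a probe set among them, and are not members.

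Members varied little between rats of a group, and they varied together. The SD within groups had a median of 0.075 over the 73 members (range 0.051 to 0.257). It was 0.109 over 2282 other probe sets with a mean signal of at least 9.21, and 0.177 over all probe sets tested. Most members lay above that level of 9.21. Over the 2628 pairs of members, the residuals of the 56 rats had a median Pearson r of 0.24, and 78.8% of pairs were above 0. The same median was 0.023 over the probe sets from 9.21 up and 0.0015 over all tested. These correlations are a description, since the genes share arrays and scaling. Pairs correlated most within complex II (median r 0.44), then complex V (0.34) and complex I (0.27), and least within complexes III (0.14) and IV (0.11).

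Cox5b, a nuclear-encoded subunit of complex IV, followed the other members most closely, with r = 0.85 to their median. Next were Atp5pd (0.75), a subunit of the stalk of ATP synthase, and Ndufv1 (0.74), which binds the FMN and NADH of complex I. In all, 40 of the 73 members had an r above 0.5. Only 3 lay below 0: Cox5a (-0.31), Cox7a1 (-0.15) and Cox6c-ps1 (-0.0050). Cox5a, another nuclear-encoded subunit of complex IV, had a mean signal of 6.48 at its member probe set, next above those of Cox7a1 and Cox6c-ps1. A brighter Cox5a probe set (mean 11.23), shared with a second locus, is not a member and does not enter these correlations.

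**Figure D1:**
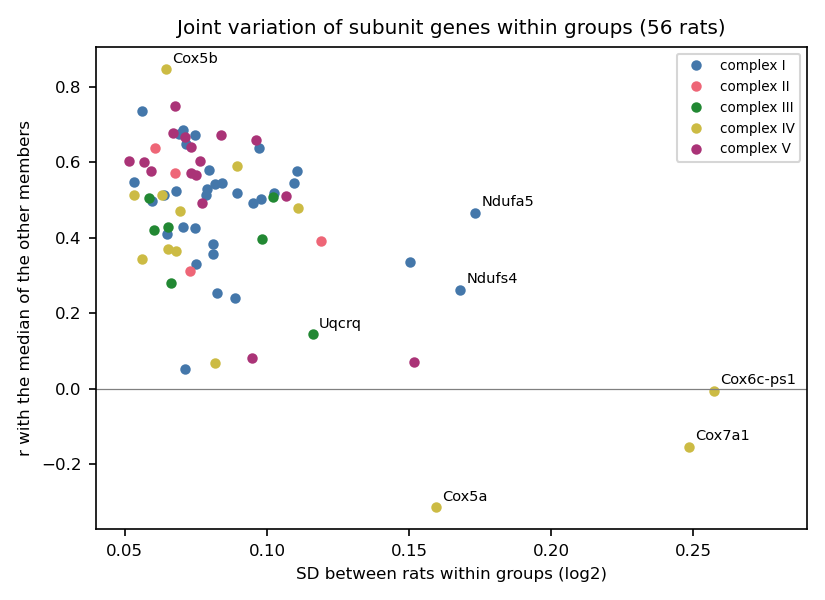
Each point is 1 of the 73 subunit genes, with the SD between rats within groups (log2) on the x axis and Pearson's r with the median of the other members, over the residuals of 56 rats, on the y axis; colours mark the complex. Most points lie at an SD near 0.075 and an r of about 0.5, with Cox5b highest at 0.85 and Cox5a lowest at -0.31.

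RefSeq gives a promoter window, from 250 bases before to 50 bases after the annotated start (GRCr8), for 66 of the 73 members. The 5 motifs below were searched on both strands, at any position in the window. They were GCGCANGCG (bound by NRF1, a regulator of nuclear genes for mitochondria), CCGGAAG (ETS factors such as GABPA) and AAGATGGCG (YY1). The others were AAGGTCA (estrogen-related receptors) and TATAAA (the letters of the TATA box). The letters of the 5 do not contain one another. NRF1's motif was in 17 of 66 member windows (25.8%), against 5.80% of all 33469 windows. The ETS motif was in 20 (30.3%, against 8.75%), the YY1 motif in 10 (15.2%, against 1.73%) and the receptor motif in 11 (16.7%, against 4.61%). TATAAA at any position was in 7 (10.6%, against 14.2%). All windows were taken whatever the signal of their gene, whereas members had passed a level of signal. Windows of equally bright genes were not compared. Among the 10 windows of complex IV, 1 held the NRF1 motif and 0 held that of YY1. The windows below are those of the gene that followed the others most closely in each of complexes IV and I, of the one that did so least, and of 1 of the 2 members that hold 4 of the 5 motifs (the other is Atp5mg). Capitals mark motif matches, in Cox5b an ETS match. In Ndufs6, an accessory subunit of complex I, they mark TATAAA, an NRF1, a YY1 and a receptor match. These begin at -209, -25, 23 and 39 bases from the annotated start. Ndufv1 and Cox5a hold none of the 5.
Cox5b, chr9:46417587-46417886 (+): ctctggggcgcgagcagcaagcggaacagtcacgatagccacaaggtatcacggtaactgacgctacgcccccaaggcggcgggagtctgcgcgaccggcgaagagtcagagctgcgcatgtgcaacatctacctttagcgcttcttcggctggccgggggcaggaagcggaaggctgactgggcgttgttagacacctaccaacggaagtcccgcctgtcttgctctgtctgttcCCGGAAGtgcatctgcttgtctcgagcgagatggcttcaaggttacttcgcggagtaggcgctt
Ndufv1, chr1:210734842-210735141 (-): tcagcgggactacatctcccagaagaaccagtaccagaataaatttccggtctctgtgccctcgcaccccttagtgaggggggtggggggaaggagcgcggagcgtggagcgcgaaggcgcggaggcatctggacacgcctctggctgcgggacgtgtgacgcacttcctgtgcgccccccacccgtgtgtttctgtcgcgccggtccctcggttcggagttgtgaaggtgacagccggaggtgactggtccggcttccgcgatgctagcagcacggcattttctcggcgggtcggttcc
Cox5a, chr8:66818034-66818333 (+): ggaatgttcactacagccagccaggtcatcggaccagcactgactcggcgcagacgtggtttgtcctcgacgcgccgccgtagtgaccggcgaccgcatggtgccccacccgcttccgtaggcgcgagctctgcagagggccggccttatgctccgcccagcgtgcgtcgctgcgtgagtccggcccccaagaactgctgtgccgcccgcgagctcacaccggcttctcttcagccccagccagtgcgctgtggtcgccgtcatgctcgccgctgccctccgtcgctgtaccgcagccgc
Ndufs6, chr1:31797150-31797449 (+): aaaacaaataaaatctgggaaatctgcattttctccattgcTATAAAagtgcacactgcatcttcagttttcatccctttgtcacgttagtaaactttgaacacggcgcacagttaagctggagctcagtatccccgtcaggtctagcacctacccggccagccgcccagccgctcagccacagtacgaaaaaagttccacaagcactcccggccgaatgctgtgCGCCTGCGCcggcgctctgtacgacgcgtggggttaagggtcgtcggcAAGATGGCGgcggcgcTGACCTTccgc

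The complexes differed in how they went with RNA quality. The measure used was the 3' minus 5' signal, the mean log2 difference between the 3' and 5' control probe sets of beta-actin and GAPDH, which grows as RNA is shortened. Over the residuals of the 56 rats, the median of complex II had r = -0.68 with it (Spearman -0.61) and the median of complex I had r = -0.48 (Spearman -0.44). Complex V had r = -0.32 (Spearman -0.26), complex III 0.13 (Spearman 0.10) and complex IV 0.32 (Spearman 0.26). These signs were the same in numbers 1 to 37 and 38 to 56, except in complex III (0.32 and -0.22), and without the 2 rats farthest from the median they moved to -0.61 for complex II and 0.29 for complex IV. Single members ran from -0.69 in Sdhd, a membrane anchor of complex II, and -0.64 in Atp5f1a, the alpha subunit of ATP synthase, to 0.50 in Cox6a1 and 0.65 in Atp5f1e, the epsilon subunit. The spread within complexes III and V was thus as wide as between complexes, with Uqcrfs1, the Rieske protein, at -0.63 and Uqcr11 at 0.49.

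L-dopa in lesioned rats with saline conditioning (7 against 7) asks what the treatment changed where dopamine neurons had been lost. No subunit gene passed the test. At an adjusted p under 0.05, 0 of 73 members and 0.0161% of all probe sets tested were called by limma. At an unadjusted p under 0.05, 16 members were lower and 0 higher, against 5.57% lower and 7.18% higher of all tested. In all, 53 members lay lower and 20 higher (47.4% of all tested were lower), with a median difference of -0.03 over members and 0.01 over all tested. These differences were small, and the 95% intervals of 50 members lay within 0.2 on either side of 0, a change of 1.15-fold.

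Complexes I, II and V lay mostly lower. All 4 genes of complex II were lower (median -0.12, 3 at an unadjusted p under 0.05), as were 28 of 33 in complex I (median -0.05, 9 at that p) and 13 of 16 in complex V (median -0.04, 3 at that p). Complex III had 3 of 7 lower (median 0.01), and complex IV 5 of 13 (median 0.00). The lowest difference of any member was that of the dim Cox7a1 in complex IV (-0.23 ± 0.13). Sdha was measured at 10.38 to 10.52 (lowest and highest, median 10.46) in rats given L-dopa and at 10.44 to 10.70 (median 10.62) in rats given saline. The ranges overlap, although all 7 treated rats lay below the saline mean, and the difference was -0.14 ± 0.04 (SE; adjusted p = 0.169). The other genes of complex II differed by -0.15 ± 0.07 (Sdhd), -0.10 ± 0.04 (Sdhb) and -0.08 ± 0.04 (Sdhc).

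Ndufa12, an accessory subunit of complex I, spanned 9.96 to 10.19 (median 10.08) under L-dopa and 10.09 to 10.34 (median 10.24) under saline. All 7 treated rats lay below the saline mean here too, with overlapping ranges and a difference of -0.16 ± 0.05 (SE; adjusted p = 0.169). Core subunits of complex I that carry its electrons were also among the 16: Ndufs1 at -0.11 ± 0.05, Ndufs8 at -0.12 ± 0.05 and Ndufv1 at -0.07 ± 0.04. From complex III only Uqcrfs1 was among them (-0.14 ± 0.06), and from complex V Atp5f1a (-0.13 ± 0.05), Atp5pf (-0.12 ± 0.04) and Atp5mg (-0.11 ± 0.05). At the other end stood Cox5a (0.15 ± 0.08, adjusted p = 0.445) and Cox7a2l, a factor of respiratory supercomplexes (0.07 ± 0.05, adjusted p = 0.532).

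RNA quality differed between these 2 groups. The 3' minus 5' signal was 1.11 ± 0.09 in rats given L-dopa and 0.87 ± 0.10 in rats given saline (SD, n = 7 each). With it in the fit, the median difference of members was -0.01, and 1 member was lower and 2 were higher at an unadjusted p under 0.05, with 0 of the 16 among them. Sdha then differed by -0.06 ± 0.04, Ndufa12 by -0.10 ± 0.05 and Sdhd by 0.04 ± 0.06. The lower member was Atp5f1e (-0.10 ± 0.05), and those higher were Ndufc1 (0.14 ± 0.05) and Ndufa9 (0.10 ± 0.05), an accessory subunit at the junction of the complex I arms. Cortical markers also differed: 6 of 7 tested were higher under L-dopa, with a score of 0.26 ± 0.36 under L-dopa and -0.25 ± 0.65 under saline (SD, n = 7 each), and 11 of 11 spiny neuron markers were lower. With the cortical score in the fit, 15 members were lower at an unadjusted p under 0.05, 13 of the 16 among them. The score of striatal interneuron markers did not overlap, at -0.32 to -0.13 under L-dopa and -0.03 to 0.29 under saline, and 4 of 5 tested markers were lower. Both tested markers of choroid plexus were lower too, with a score of -0.80 ± 0.34 under L-dopa and 0.39 ± 1.08 under saline. The part of the last 2 lists in the members' values was not tested. In bulk tissue, fewer cells of a type and less RNA per cell cannot be told apart.

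**Figure D2:**
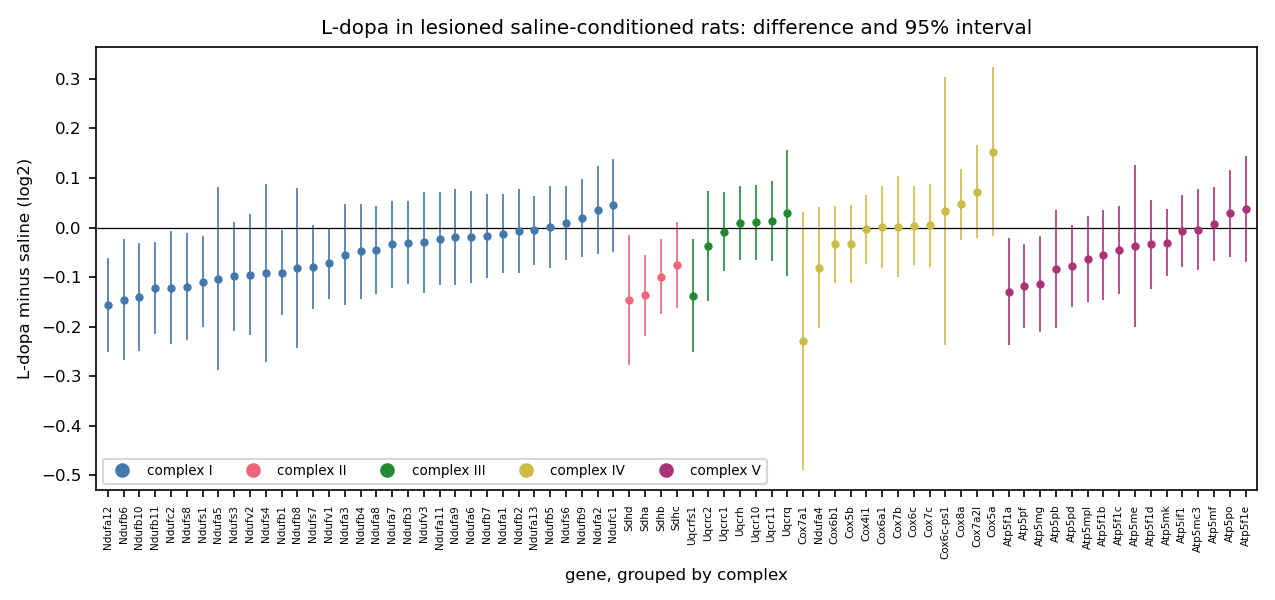
Difference in log2 signal (L-dopa minus saline) with its 95% interval for each of the 73 genes in lesioned saline-conditioned rats, 7 rats per group, sorted within complexes I to V (colours). Of the 73 points 53 lie below 0, among them all 4 of complex II, and complex IV lies on both sides.

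In lesioned rats conditioned with pramipexole, L-dopa again called 0 of 73 members (0.0% of all tested). Here 45 members lay lower (49.0% of all tested), with a median of -0.02, and 2 were lower at an unadjusted p under 0.05 (2.05% of all tested) and 0 higher (3.00%). They were Ndufs6 (-0.08 ± 0.04) and Atp5mk (-0.07 ± 0.03), both with an adjusted p above 0.9 in limma. By the moderated t, the difference over its error, Ndufc1, a small accessory subunit (0.07 ± 0.05), and Ndufb1, another (0.06 ± 0.04), ranked highest. The differences themselves ran from Atp5me (-0.16 ± 0.08) to Cox6c-ps1 (0.17 ± 0.13). Complex II had 2 lower and 2 higher. The 3' minus 5' signal was 1.06 ± 0.08 under L-dopa and 0.96 ± 0.08 under saline (SD, n = 7 each), a smaller gap than in the saline-conditioned rats. With it in the fit, 4 members were lower at an unadjusted p under 0.05, the 2 above among them, and 2 were higher.

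Over both conditionings together (14 against 14), 59 of 73 members lay lower under L-dopa, against 46.0% of all tested, and 0 were called (0.00537% of all tested). Without adjustment, at p under 0.05, 14 were lower and 0 higher (4.90% and 5.37% of all tested). Sdha differed by -0.10 ± 0.03 (adjusted p = 0.228), with 13 of 14 treated rats below the saline mean, and Ndufs8, an iron-sulfur subunit of complex I, by -0.11 ± 0.04 (adjusted p = 0.286). The intervals of 68 members lay within 0.2 of 0. With the 3' minus 5' signal in the fit, the median of members was -0.01 instead of -0.03, and 3 members were lower and 1 was higher at that p, with 0 of the 14 among them. Sdha then differed by -0.04 ± 0.03 and Ndufs8 by -0.03 ± 0.04.

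In sham rats, L-dopa could be compared inside numbers 38 to 56 (5 against 7). None of the 73 members was called by limma (0.0% of all tested), 58 lay lower (48.6% of all tested) with a median of -0.04, and at an unadjusted p under 0.05, 5 were lower (2.90%) and 0 higher (3.74%). In complex I, 30 of 33 lay lower. Ndufs7, the subunit that holds the last iron-sulfur cluster before ubiquinone, spanned 9.60 to 9.86 (median 9.75) under L-dopa and 9.72 to 9.96 (median 9.88) under saline. Its difference was -0.12 ± 0.05 (adjusted p = 0.605), with 4 of 5 treated rats below the saline mean. Ndufc2, an accessory subunit, differed by -0.16 ± 0.06 (adjusted p = 0.621). Ndufa6 was the 1 member whose groups did not overlap (-0.11 ± 0.05), against 0.376% of all tested. The 3' minus 5' signal was alike here, 1.08 ± 0.14 (SD, n = 5) under L-dopa and 1.06 ± 0.15 (n = 7) under saline, and the same 5 members were lower at that p with it in the fit.

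The difference between the L-dopa effect in lesioned and in sham rats (saline-conditioned) was tested directly. No member was called in it (0.0% of all tested), and 31 lay below 0 (48.8% of all tested), with a median of 0.01. With no adjustment, at p under 0.05, 1 was lower (3.03%) and 0 were higher (3.04%). That gene was Sdha, at -0.14 ± 0.06 (adjusted p = 0.761). With the 3' minus 5' signal in the fit, 3 other members were higher at that p and 0 lower.

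Under pramipexole, most members of lesioned rats (14 against 14) lay higher. Here 60 of 73 members lay higher and 13 lower (46.2% of all tested were lower), by a median of only 0.02, and 0 were called by limma (0.0% of all tested). Before adjustment (p under 0.05), 9 were higher and 0 lower, against 3.80% and 2.57% of all tested. Complex IV had 12 of 13 members higher (median 0.04) and complex I had 27 of 33 (median 0.02). The 3' minus 5' signal was 1.06 ± 0.08 under pramipexole and 1.11 ± 0.09 under saline with L-dopa, and 0.96 ± 0.08 and 0.87 ± 0.10 without it (SD, n = 7 each). With it in the fit, the same 9 members were higher at that p. The intervals of 70 members lay within 0.2 of 0.

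Atp5f1e had the largest difference relative to its error. It spanned 11.03 to 11.36 (median 11.24) with L-dopa and pramipexole and 11.00 to 11.27 (median 11.11) with L-dopa and saline. Without L-dopa it spanned 11.15 to 11.35 (median 11.24) under pramipexole and 11.00 to 11.17 (median 11.04) under saline. Pramipexole was higher in both pairs with some overlap, and over both pairs the difference was 0.12 ± 0.04 (SE; adjusted p = 0.688). Ndufb7, an accessory subunit of complex I, differed by 0.09 ± 0.03 (adjusted p = 0.688), with 13 of 14 rats above the saline mean. Atp5pb, a stalk subunit of ATP synthase (-0.04 ± 0.04), and Ndufb11 (-0.03 ± 0.03) had the lowest moderated t. The differences themselves ran from Ndufs4, an accessory subunit of complex I (-0.04 ± 0.06), to Cox6c-ps1 (0.22 ± 0.10).

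In the lesioned rats given L-dopa, pramipexole left 63 members higher and 10 lower (49.0% of all tested were lower), with a median of 0.03 and 0 called (0.0161% of all tested). At an unadjusted p under 0.05, 6 were higher (3.46%) and 0 lower (2.36%). Ndufb1 spanned 10.20 to 10.34 (median 10.27) under pramipexole and 10.04 to 10.27 (median 10.06) under saline. Its groups overlapped, with all 7 pramipexole rats above the saline mean, and the difference was 0.12 ± 0.04 (adjusted p = 0.734). Ndufv3, a flavoprotein-arm subunit, differed by 0.12 ± 0.05 (adjusted p = 0.777). Its dimmer second probe set (mean 5.31) had the opposite sign with the 3' minus 5' signal in the fit (-0.11 ± 0.13, against 0.12 ± 0.05). The dim Cox6c-ps1 (0.29 ± 0.13) and Cox7a1 (0.18 ± 0.13) had the highest differences. Lowest were Ndufb5 (-0.04 ± 0.04) and Atp5mc3, a c-ring subunit (-0.04 ± 0.04). The blood marker Hbb was lower under pramipexole in the same rats (-0.87 ± 0.17, adjusted p = 0.0403). Other marker scores moved as well: choroid plexus averaged 0.60 ± 1.63 under pramipexole and -0.80 ± 0.34 under saline, striatal interneurons 0.01 ± 0.18 and -0.18 ± 0.07, cortex 0.01 ± 0.36 and 0.26 ± 0.36, and microglia 0.34 ± 1.00 and -0.08 ± 0.09 (SD, n = 7 each). All 11 spiny neuron markers and all 8 of microglia were higher under pramipexole. The microglial mean held 1 rat at 2.60, and the medians were -0.01 under pramipexole and -0.08 under saline. With the cortical score in the fit, 7 members were higher at that p, 5 of the 6 among them, and the part of the other lists was not tested.

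In lesioned rats without L-dopa, 42 members lay higher and 31 lower under pramipexole (46.5% of all tested were lower), with a median of 0.01, and 0 were called (0.0% of all tested). With no adjustment, at p under 0.05, 5 were higher (4.15%) and 0 lower (2.93%). Cox7c, a small subunit of complex IV, spanned 11.09 to 11.24 (median 11.19) under pramipexole and 10.90 to 11.19 (median 11.07) under saline. All 7 pramipexole rats lay above the saline mean, and the difference was 0.11 ± 0.04 (adjusted p = 0.588). Atp5f1e differed by 0.14 ± 0.05 (adjusted p = 0.626). Sdhd (-0.12 ± 0.07) and Ndufa12 (-0.07 ± 0.05) had the lowest moderated t, and the differences ran from Cox7a1 (-0.12 ± 0.13) to Cox6c-ps1 (0.16 ± 0.13). With the 3' minus 5' signal in the fit, 3 members were higher at that p, 2 of the 5 among them. These values and those of L-dopa above share as controls the lesioned rats given saline only.

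In sham rats without L-dopa, 57 of 73 members lay lower under pramipexole (median -0.03, with 48.8% of all tested lower), 12 of the 13 of complex IV among them. None was called by limma (0.0% of all tested), 5 were lower at an unadjusted p under 0.05 (2.85%) and 1 was higher (3.48%). Uqcrq, a small subunit of complex III near its ubiquinone site, spanned 10.49 to 10.71 (median 10.58) under pramipexole and 10.62 to 10.91 (median 10.75) under saline. All 7 pramipexole rats lay below the saline mean, and the difference was -0.18 ± 0.06 (adjusted p = 0.637). Ndufv1 differed by -0.08 ± 0.04 (adjusted p = 0.731), whereas Ndufb4 (0.10 ± 0.05) and Ndufb8 (0.11 ± 0.08) stood highest. The 3' minus 5' signal was 0.99 ± 0.06 under pramipexole and 1.06 ± 0.15 under saline (SD, n = 7 each). With it in the fit, 63 members lay lower, 7 of them at that p and 4 of the 5 among these. All 8 astrocyte markers were lower as well, with a score of -0.09 ± 0.11 under pramipexole and 0.07 ± 0.11 under saline, and the blood marker Hbb had a score of -0.21 ± 0.32 under pramipexole and 0.15 ± 0.21 under saline. The part of these 2 lists was not tested. The sham saline rats also serve the L-dopa comparison in sham rats, so the lower values in both share their controls.

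The sham rats given L-dopa allow a pramipexole comparison inside numbers 1 to 37 of 7 against only 2. It called 0 members (0.0% of all tested), and 69 lay higher and 4 lower (51.5% of all tested were lower), with a median of 0.06. Before adjustment (p under 0.05), 3 were higher (1.65%) and 0 lower (1.78%). Sdhb (0.14 ± 0.06), Ndufs7 (0.13 ± 0.06), Ndufb5 (0.12 ± 0.06) and Cox7c (0.09 ± 0.06) did not overlap, against 4.62% of all tested. Ndufc1 differed by 0.16 ± 0.07, and Cox7a1 had the highest difference (0.31 ± 0.19), while Atp5me (-0.09 ± 0.12) and Ndufa2 (-0.06 ± 0.07) stood lowest. The interneuron score did not overlap here either, at -0.08 to 0.19 under pramipexole and at -0.19 and -0.17 in the 2 rats under saline, and its part was not tested.

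**Figure D3:**
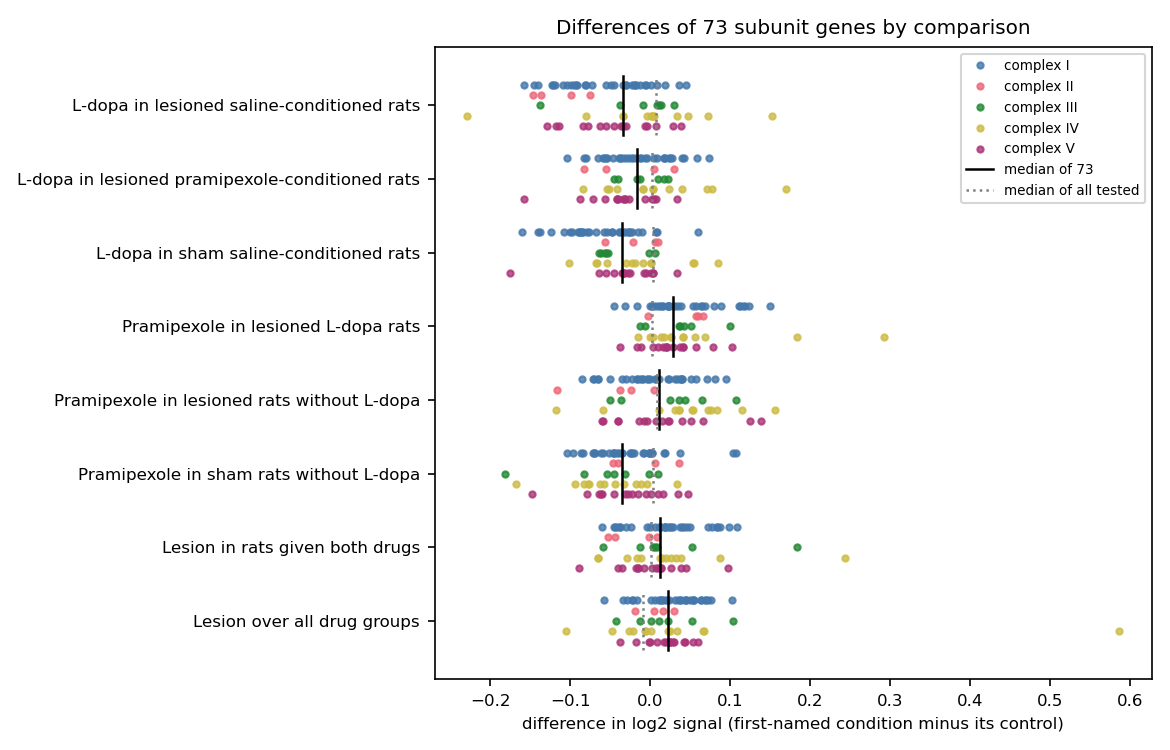
Differences in log2 signal of the 73 subunit genes (points, coloured by complex) in 8 comparisons, each the first-named condition minus its control, with the median of the 73 as a black line and that of all tested probe sets as a dotted one. Medians lie between -0.04 and 0.03, and the point far to the right in the lesion comparison, at 0.59, is Cox5a.

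Whether pramipexole acted differently in lesioned and sham rats (without L-dopa) was tested as the difference of the 2 effects. No member was called (0.0% of all tested). Without adjustment, at p under 0.05, 13 members were higher and 0 lower, against 3.36% and 3.34% of all tested. The median was 0.04 over members and 0.01 over all, with 23 members below 0 (47.9% of all tested) and 11 of 13 in complex IV above 0 (median 0.10). Cox7c (0.20 ± 0.06, adjusted p = 0.584) and Uqcrq (0.29 ± 0.09, adjusted p = 0.631) had the highest moderated t, and Ndufb4 (-0.11 ± 0.07) and Sdhd (-0.15 ± 0.09) the lowest. After Uqcrq, the highest difference was that of Atp5me (0.27 ± 0.11). With the 3' minus 5' signal in the fit, 12 members were higher at that p, 7 of the 13 among them. This difference sets rats of numbers 1 to 37 against rats of 38 to 56, but each effect was taken inside its own set.

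The interaction of L-dopa and pramipexole in lesioned rats also called 0 members (0.0% of all tested), and 30 lay below 0 (50.9% of all tested). At an unadjusted p under 0.05, 3 were higher (2.93%) and 0 lower (4.05%). Ndufa12 (0.18 ± 0.07, adjusted p = 0.649) and Ndufb1 (0.15 ± 0.06, adjusted p = 0.701) were among them. Ndufs6 (-0.09 ± 0.05) and Cox7c (-0.09 ± 0.06) had the lowest moderated t, and the differences ran from Atp5me (-0.12 ± 0.11) to Cox7a1 (0.30 ± 0.18). With the 3' minus 5' signal in the fit, the median of members was 0.0025 instead of 0.02, and 34 lay below 0. Then 2 members were higher at that p, 2 of the 3 among them, and 0 lower. Medians per rat show the size of all these effects. Centred on each gene's mean, the median of the 73 members averaged 0.01 ± 0.02 with both drugs, -0.02 ± 0.04 with L-dopa alone, 0.03 ± 0.04 with pramipexole alone and 0.02 ± 0.07 with saline alone in lesioned rats (SD, n = 7 each). The widest span, from -0.05 to 0.11, was among the lesioned rats that had received saline only.

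**Figure D4:**
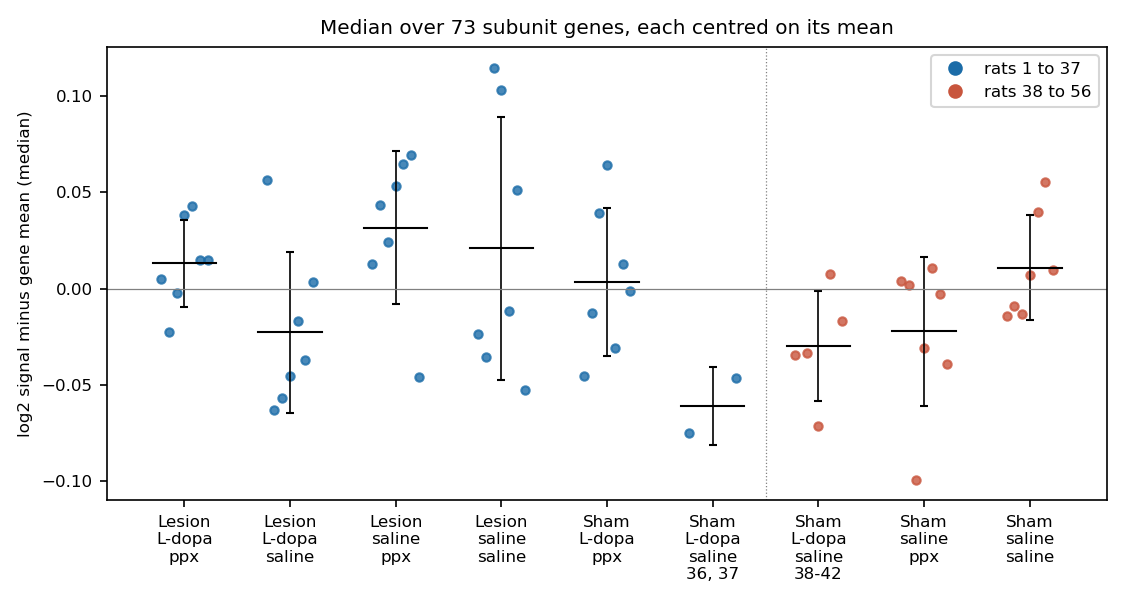
Median of the 73 subunit genes per rat, each gene centred on its mean over 56 arrays (log2), with the group mean and SD; the dotted line parts samples 1 to 37 (blue) from 38 to 56 (red). The 8 treatment groups overlap, and the rat farthest from 0 lies at 0.11.

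The lesion itself was compared in 2 ways. Over all drug groups (28 against 28), 5 of 73 members rose in lesioned rats and 0 fell, and 5.07% of all tested were called in either direction. In all, 54 lay higher and 19 lower (55.2% of all tested were lower), and at an unadjusted p under 0.05, 18 were higher and 2 lower (8.06% and 11.7% of all tested). Cox5a rose by 0.59 ± 0.05 (adjusted p = 3.03e-11), and Ndufa3, a small membrane subunit of complex I, by 0.10 ± 0.03 (adjusted p = 0.00837). Uqcrq rose by 0.10 ± 0.03 (adjusted p = 0.0445), Ndufs7 by 0.07 ± 0.02 (adjusted p = 0.0383) and Atp5mk by 0.06 ± 0.02 (adjusted p = 0.0258). Leaving out each rat in turn, Uqcrq lost its call in 34 of 56 cases and Ndufs7 in 14. With the array set as a block, 0 members and 0 probe sets at all were called, with 2 members higher at an unadjusted p under 0.05. All lesioned rats are in numbers 1 to 37, so the block rests on the sham rats numbered 36 and 37 against 38 to 42. Errors were wider with it (0.07 against 0.03 for Uqcrq), so a lost call does not show that a difference was lost. In that fit 63 of 73 members lay higher. Their median was 0.05, against -0.01 over all tested with the block and 0.02 over members without it. The 5 genes called without the block then differed by 0.07 ± 0.10 (Cox5a), 0.09 ± 0.06 (Ndufa3), 0.18 ± 0.07 (Uqcrq), 0.06 ± 0.05 (Ndufs7) and 0.07 ± 0.04 (Atp5mk).

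Cox5a followed the array numbers. Its median signals in the 4 lesioned groups were 6.87 (L-dopa, pramipexole), 6.83 (L-dopa, saline), 6.78 (saline, pramipexole) and 6.65 (saline, saline). Sham rats given both drugs, also in numbers 1 to 37, had a median of 6.76, while sham rats given saline with pramipexole or saline conditioning had 5.76 and 5.91. Those with L-dopa and saline conditioning had 6.76 and 6.78 under numbers 36 and 37, and 5.76 to 6.35 (median 5.98) under 38 to 42. Rats of this 1 treatment group thus lay on both sides of the step. Over all rats, numbers 1 to 37 spanned 6.41 to 7.02 and numbers 38 to 56 spanned 5.63 to 6.49, with a mean difference of 0.88 that was larger in only 5 of the tested probe sets. The largest such difference in any other member was 0.12. The Cox5a probe set shared with a second locus (mean 11.23) differed by 0.06 ± 0.02 with the lesion (adjusted p = 0.159).

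**Figure D5:**
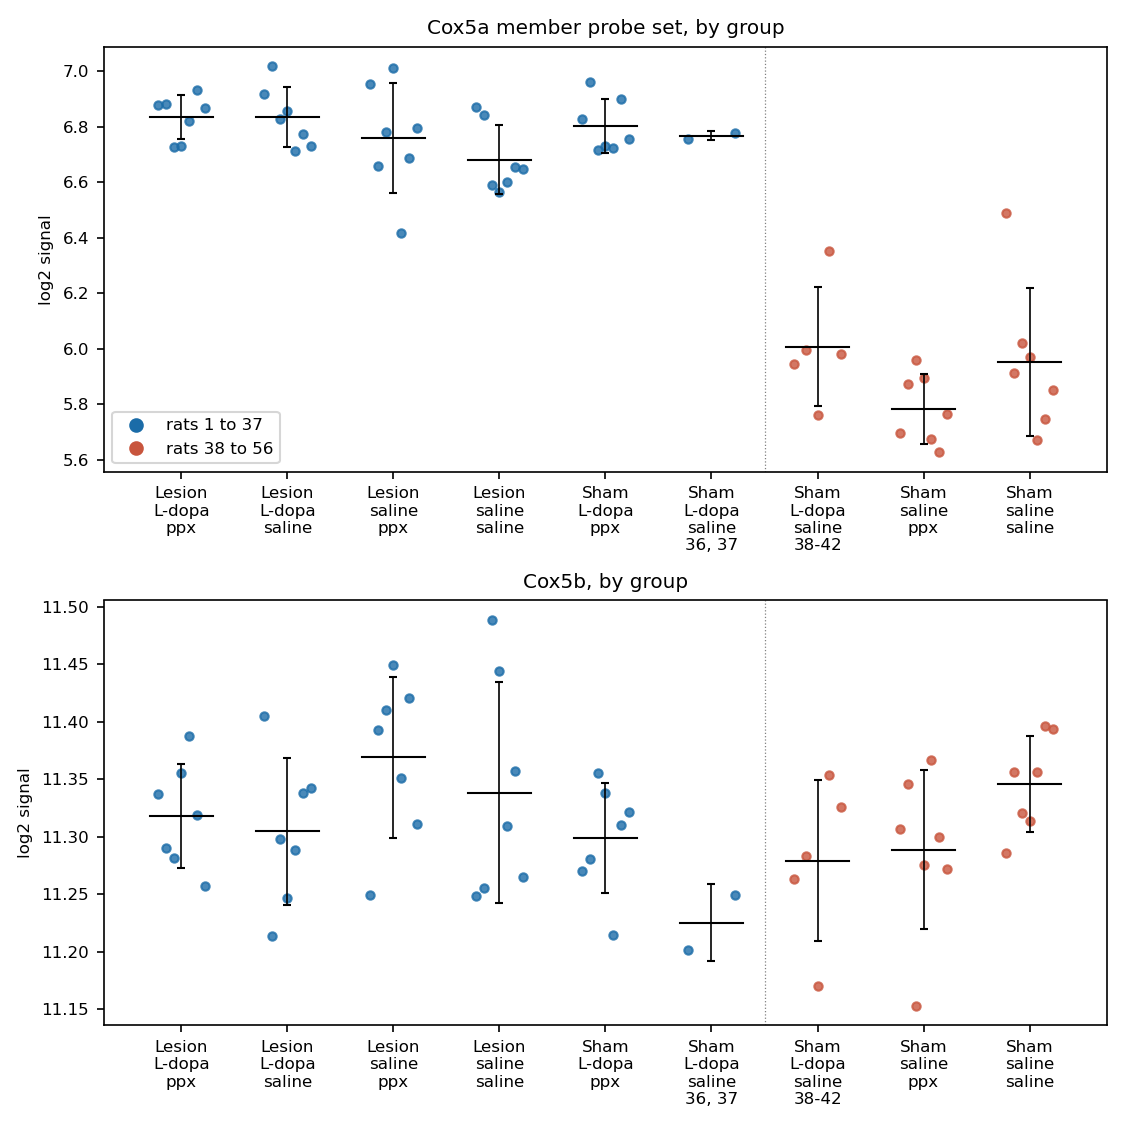
Log2 signal of the Cox5a member probe set (top) and of Cox5b (bottom) in each rat, with the group mean and SD; samples 1 to 37 are blue and 38 to 56 red. Cox5a lies at 6.41 to 7.02 in blue groups, lesioned or sham, and at 5.63 to 6.49 in red ones, which are all sham. The 8 treatment groups overlap in Cox5b.

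In rats given both drugs, lesioned and sham rats lie in the same set of numbers (7 against 7). No member was called by limma there (0.0% of all tested), and 46 lay higher and 27 lower (49.5% of all tested were lower), with a median of 0.01. Before adjustment (p under 0.05), 2 were higher (3.73%) and 0 lower (3.07%). Uqcrq spanned 10.71 to 11.02 (median 10.82) in lesioned rats and 10.49 to 11.01 (median 10.56) in sham rats. All 7 lesioned rats lay above the sham mean, but 1 sham rat reached 11.01, and the difference was 0.18 ± 0.06 (adjusted p = 0.568). Ndufv3 differed by 0.11 ± 0.05 (adjusted p = 0.721), and Cox6a1 (-0.07 ± 0.04) and Atp5pb (-0.09 ± 0.06) stood lowest. The highest difference was that of Cox6c-ps1 (0.24 ± 0.13). The intervals of 63 members lay within 0.2 of 0. The 3' minus 5' signal was 1.06 ± 0.08 in lesioned and 1.03 ± 0.13 in sham rats (SD, n = 7 each). With it in the fit, 4 members were higher at an unadjusted p under 0.05, the 2 above among them, and 1 was lower.

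Further probe sets above a signal of 5 exist for 5 members, and they did not always go with the chosen one. Uqcrc2, a core protein of complex III, differed by -0.03 ± 0.04 under L-dopa in lesioned rats (14 against 14) at its brightest probe set, and by -0.43 ± 0.13 (adjusted p = 0.225) at the other. That second probe set had medians of 8.77 and 8.78 in the lesioned groups given L-dopa with pramipexole and saline conditioning, and 9.33 and 9.36 in those given saline, with overlapping ranges. With the 3' minus 5' signal in the fit its difference was -0.05 ± 0.11. The second probe sets of Ndufv3 (0.16 ± 0.09) and Ndufa7 (0.03 ± 0.05) had the opposite sign to the members (-0.0030 ± 0.036 and -0.01 ± 0.03). With the 3' minus 5' signal in the fit, the second Sdhd probe set (mean 9.34) differed by 0.10 ± 0.04, against 0.07 ± 0.04 at the member. In saline-conditioned rats alone these values were 0.18 ± 0.06 and 0.04 ± 0.06. In the same fit over both conditionings, the second Ndufa9 probe set (mean 5.01) differed by -0.17 ± 0.11, against 0.06 ± 0.03.

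Genes that build and supply the complexes were listed too. Under L-dopa in lesioned saline-conditioned rats, 30 of 41 assembly factors, 15 of 22 genes of the TCA cycle and pyruvate dehydrogenase, 17 of 23 cytochrome c and carrier genes and 16 of 22 regulators lay lower, with medians of -0.05, -0.04, -0.06 and -0.04. Without adjustment, at p under 0.05, 6, 5, 5 and 1 of them were lower, and 0 were called. Over all tested, 47.4% lay lower, 5.57% at that p. The 3' minus 5' signal differs between these same groups (1.11 ± 0.09 under L-dopa and 0.87 ± 0.10 under saline), and its part in these lists was not tested. In the lesion comparison over all drug groups, Atpaf2, which assembles the F1 part of ATP synthase, rose by 0.20 ± 0.05 (adjusted p = 0.00463), and Vdac2, an outer-membrane channel, by 0.07 ± 0.02 (adjusted p = 0.0222). Gabpa, which binds the ETS motif, differed by -0.13 ± 0.03 (adjusted p = 0.00698), and Tfam, which maintains mitochondrial DNA, by -0.12 ± 0.04 (adjusted p = 0.0431). Over all tested, limma called 5.07% in this comparison, which coincides in large part with the array numbers. With the array set as a block no probe set was called, these 4 included, but errors in that fit were wider.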

How the data were processed

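Total RNA of the dorsal striatum was labelled with a 3' IVT kit and hybridized to Affymetrix Rat230_2 arrays, 1 per rat. The authors deposited log2 signals made with MAS5, per the submitters' processing notes; its version and scaling target are not given in the sources used here. Unlogged, the 2% trimmed mean was 150.042 to 150.046 on every array. The values were used as deposited. Detection calls were not used here; precision is set by the number of arrays. Of 31042 probe sets that are not controls, the 18625 with a mean above the 40th percentile (4.99) were tested.

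Linear models were fitted with limma 3.58.1 (R 4.3.3) on 9 cell means (the 8 groups, with sham L-dopa saline rats split at number 38) with eBayes; the lesion over all drug groups was fitted to 8 group means. Calls were made at 0.05 after two-sided Benjamini-Hochberg adjustment over all probe sets tested. Differences are given with their SE. Correlations used residuals from the cell means. The script was tested on simulated data. The members, gene lists and tests were chosen with earlier results of these data known. A marker score is the mean of a list's tested genes, each centred over 56 arrays.

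Named genes are the brightest and dimmest members of each complex, called members, or else up to 2 of the largest positive and negative moderated t in each comparison, Cox5a, Ndufs7 and Uqcrq, the isoforms of complex IV, members beside the level of 5, and called genes of the other lists. Genes of an unadjusted p under 0.05, of the extreme correlations or of the lowest and highest differences were added after their values were seen. Marker lists covered spiny neurons, cortex, microglia, astrocytes, oligodendrocytes, vessels, blood, choroid plexus and interneurons. Promoter sequences are from RefSeq, build GRCr8, matched by symbol; the array files name no genome build. The NRF1 motif was shortened by its last letter after a first search had been seen; the longer form had fewer matches both in members and in all windows.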

Additional observations from a re-analysis of the deposited data

Results flagged for a closer look

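Per group of 7 or 5 rats, the highest or lowest value of 11 quantities (10 members told with their ranges, and the median of all members) was set against its nearest neighbour by Dixon's test at the 95% level. It set apart 7 of 88 sets of values, and chance alone would do so in about 1 of 20. Of these, 4 came from 1 rat, number 29 of the sham rats given both drugs. Its signal was 10.74 in Ndufa3 (next 10.51), 11.44 in Atp5f1e (next 11.15) and 11.24 in Cox7c (next 11.12), all highest of the group, and 10.37 in Sdha (next 10.53), the lowest. The same rat had the group's highest 3' minus 5' signal, 1.29, and its median of complex II lay at -0.13 and that of complex IV at 0.07. The part of RNA quality in these values was not tested rat by rat.

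The other 3 came from single rats. Cox5a was 6.49 in 1 sham rat given saline only (next 6.02). Uqcrq was 10.53 in 1 lesioned rat given saline only, the lowest (next 10.67), and Cox7c was 11.09 in 1 lesioned rat given saline and pramipexole, also the lowest (next 11.18).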

How the results depend on the processing

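Of 1022 values recomputed under other settings (calls, medians and named genes), 1004 kept their direction and their side of the threshold. Another 15 crossed the threshold or moved, 3 medians close to 0 changed sign, and 0 called values reversed. Most values were not called in the main fit, so keeping their side says little. Counts of members at an unadjusted p under 0.05 were not among the values. With the 3' minus 5' signal, 0 of the 16 lower members under L-dopa in lesioned saline-conditioned rats stayed at that p. The settings were quantile normalization, testing every probe set, testing those above the 60th percentile, 16 added to the unlogged signal, array weights, an intensity trend with a robust prior, each array set fitted alone, the mean over a gene's probe sets, the 3' minus 5' signal, a block for the array set, without rat 2, and leaving out each rat; the cortical score as a covariate was chosen after seeing the data. In the 13 comparisons other than the lesion over all drug groups, 0 members were called under any setting that could be fitted. In the lesion over all drug groups, a block for the array set left 0 members called, in a fit with wider errors. There were 3 to 6 when single rats were left out, against 5 with all rats. Of the 5 genes called there, Uqcrq lost its call with no filter (adjusted p = 0.0627), under quantile normalization (0.125) and without rat 2 (0.0504). It kept its call with the 3' minus 5' signal in the limma fit (0.12 ± 0.03, adjusted p = 0.00669). Leaving out each of the 56 rats in turn, it lost its call in 34 cases (adjusted p 0.00680 to 0.0660, and 0.0655 at its lowest difference). Ndufs7 lost it under quantile normalization (0.100), with the 3' minus 5' signal (0.0641) and without any 1 of 14 rats (up to 0.0609, and 0.0586 at its lowest difference), and Atp5mk under quantile normalization (0.203). The cause of these losses was not tested. The median difference under L-dopa in lesioned saline-conditioned rats lay between -0.05 and -0.02 without single rats, and at -0.01 with the 3' minus 5' signal. Without L-dopa, the pramipexole median in lesioned rats was -0.01 to 0.03 without single rats, with the lowest value without rat 28. That is below 0, against 0.01 with all rats. The medians of the lesion in rats given both drugs and of the difference between L-dopa effects also dropped below 0 at the lowest, to -0.00011 without rat 29 and -0.01 without rat 8. No paired analysis was possible because the groups share no sample numbers. The lesion over all drug groups and the differences between lesioned and sham effects could not be fitted inside a single array set.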
